A study of Mus musculus with 24 samples.

Results

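The genes described here are the histone methylation and chromatin remodelling genes of the mouse hypothalamus, taken by symbol: the Kmt and Setd methyltransferases, the Kdm demethylases, the Chd, Smarc and Arid genes, the Brd, Brwd and Brpf bromodomain genes, and Ep300 and Crebbp. The rule found 85 of the 55471 genes listed, and 84 of them were among the 18992 genes that passed the expression filter. Arid3c, with 89 counts in all, did not pass. The list was chosen after Brwd3 was seen to be higher on d14, so the values of that comparison are a description. Counts past a threshold on d14 are given beside those of all genes to describe the comparison, and do not test the list.

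The study infused wild-type, chow-fed male C57BL/6J mice aged 18 weeks through a gastric catheter. ExpOF mice received a sucrose-supplemented liquid diet, raised stepwise to 150% of their energy need, for 14 days. Control mice had the same surgery and were given sterile water at the same flow. Whole hypothalami were taken on d14 or 3 days after overfeeding ended (d14+3), with 6 libraries in each of the 4 groups, Control d14, ExpOF d14, Control d14+3 and ExpOF d14+3.

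DNA in the nucleus is wound around histones, and methyl groups on histone lysines mark regions as active or silent. Kmt and Setd enzymes write these marks, Kdm enzymes erase them, and proteins with bromodomains read acetylated lysines. CHD, SWI/SNF and ISWI complexes use ATP to slide or evict nucleosomes, while Ep300 and Crebbp acetylate histones at enhancers, and many of these genes are linked to neurodevelopmental disorders when mutated.

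Library totals ran from 8928182 to 34848437 counts. Control d14 replicate 4, the library the study also removed, stood apart: its mean over the 84 members was 4.84 log2 CPM (counts scaled to library size), against 5.36 to 5.66 in the other 23 libraries, while its mean over 95 ribosomal protein genes was 7.99 against 5.65 to 6.52. It was left out of every value below unless named. All 10 hypothalamic markers examined, among them Pomc, Avp and Hcrt, were detected. They summed to 727 to 1300.1 CPM in Control d14 and 696 to 949.7 in ExpOF d14, and 8 were lower in ExpOF d14 (median log2 difference -0.15). At d14+3 they summed to 582 to 873 CPM in controls and 511 to 747 in ExpOF mice, and 5 were lower (median -0.028). Tissue of other kinds was uneven: the 5 choroid plexus markers summed to between 34.6 and 3051 CPM in Control d14 and 33.3 and 39.3 in ExpOF d14, and between 36.9 and 60.4 in Control d14+3 and 33.6 and 1285 in ExpOF d14+3. All 5 were lower in ExpOF d14 and higher in ExpOF d14+3 than in their controls, and their part in the member values was not tested. Of 5 pituitary markers Prl, Lhb and Cga did not pass the filter. The 2 that passed summed to between 1.57 and 95.6 CPM in Control d14 and 1.72 and 18.3 in ExpOF d14. At d14+3 they summed to between 1.6 and 2.61 CPM in controls and 1.55 and 2.78 in ExpOF mice. The 5 neuronal markers summed to 3009 to 3335 CPM in Control d14 and 3096 to 3487 in ExpOF d14. Of these, 3 were lower in ExpOF d14 (median log2 difference -0.088). At d14+3 they summed to 3441 to 3642 CPM in controls and 3258 to 3662 in ExpOF mice, and 3 were lower (median -0.042). Medians of the 5 oligodendrocyte markers were -0.19 on d14 and -0.10 at d14+3, and of the 5 leptomeningeal markers -0.34 and -0.17. For 5 markers each of astrocytes, microglia and endothelium they were 0.025, -0.0021 and -0.017 on d14 and 0.025, 0.059 and 0.014 at d14+3. In bulk tissue, fewer cells of a type and less RNA per cell cannot be told apart.

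The members were expressed at ordinary to high levels. Per length of transcript, as RPKM (CPM per kilobase of summed exons), their median was 6.4, against 3.6 for all genes tested. The highest were Chd3 at 73.5 and Chd5 at 42.4 RPKM, the remodelling ATPases of NuRD-type complexes, with Chd5 known for its neuronal expression. Smarcc2, a core scaffold of SWI/SNF, reached 61.9 RPKM, Setd3, which methylates actin, 28.3, and Chd4, the third NuRD ATPase, 28.0. At the other end lay Kdm4dl at 0.498, Kdm6bos at 0.537 and Arid3b at 0.584 RPKM. Kdm4dl is annotated as a pseudogene and shares 29.7% of its 51-base stretches with other genes, 25.2% with Kdm4d, so its reads and those of Kdm4d cannot be fully separated. Likewise Smarca5 shares 27.2% of its stretches with other genes, mostly the sequence annotated as Gm13135. Kdm6bos lies antisense to Kdm6b.

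**Figure D1:**
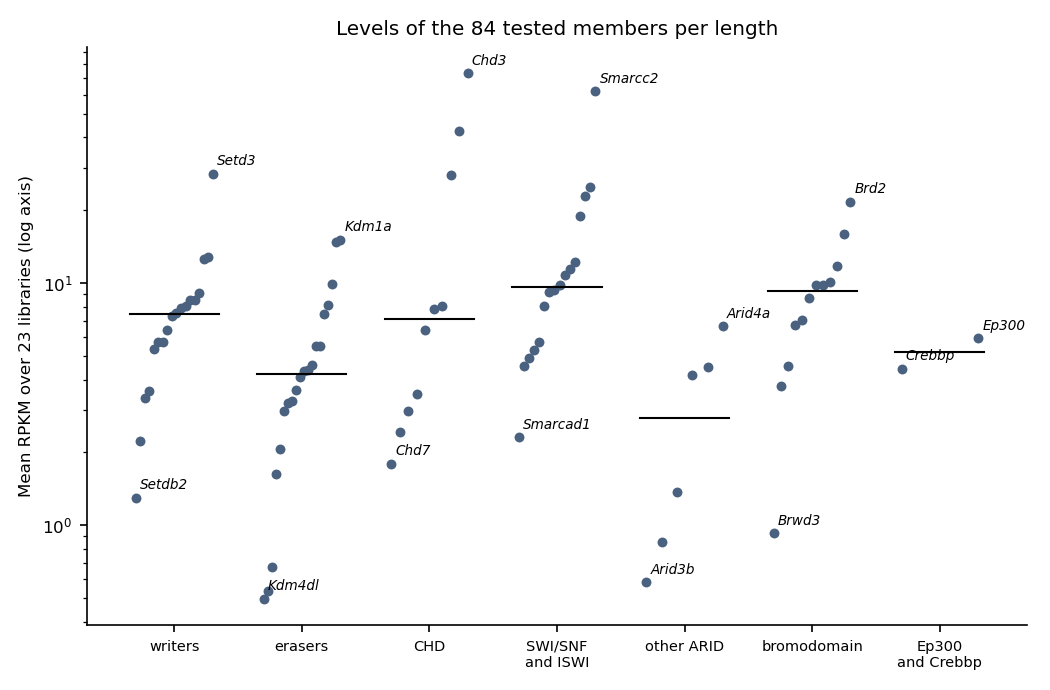
Mean RPKM over 23 libraries (vertical log axis) of the 84 tested members, by role (horizontal axis); each point is a gene, bars are medians of each role, and the highest and lowest gene of each role is named. Chd3 (73.5) and Smarcc2 (61.9) stand highest and Kdm4dl (0.498) lowest.

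Steady genes and variable genes were found side by side. Over the 23 libraries the SD was 3.87% of the mean for Smarcc2, 4.25% for Brd7, 4.53% for Brd9, 4.6% for Smarca2 and 4.75% for Chd4. Brd7 and Brd9 are the bromodomain subunits of particular SWI/SNF forms, and Smarca2 is one of its ATPases. Among members with a mean of at least 50 counts the most variable were at the other end, with an SD of 31.7% of the mean for Brwd3, 22.8% for Kmt2c, 20.9% for Kmt2a and 20.5% for Kdm7a.

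Brwd3, a WD-repeat and bromodomain protein whose human counterpart is linked to X-linked intellectual disability, was the member that led to the list. It was present at 4.97, 5.76, 7.95, 10.4 and 12.7 CPM in the 5 Control d14 libraries and at 13.0 to 17.5 CPM, with a median of 14.0, in ExpOF d14. Each ExpOF d14 library thus lay above each control, although the lowest exceeded the highest control only narrowly, and the control library left out stood at 2.08 CPM. The fold was 1.75 (log2 0.80, SE 0.239). At d14+3 the same gene ran from 5.75 to 13.6 CPM in controls, with a median of 11.6, and from 7.49 to 18.2 CPM, with a median of 12.4, in ExpOF mice. There the groups overlapped, and the difference of 0.27 on the log2 scale (SE 0.224) did not pass the test (edgeR adjusted p = 0.783, and exact two-sided permutation test p = 0.348 for 6 against 6 libraries). Within the cohort killed in July this log2 difference at d14+3 was 0.53 and within the September cohort -0.02.

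The 2 relatives of Brwd3 were more abundant. Brwd1 stood at 6.72 RPKM and Phip, a relative outside the symbol rule, at 1.75, against 0.93 for Brwd3. On d14 Brwd1 ran from 115 to 146 CPM in controls and from 143 to 154 CPM in ExpOF mice, so that a control library lay within the ExpOF range, a log2 difference of 0.18. For Phip the log2 difference was 0.52. At d14+3 Brwd1 differed by 0.14 (SE 0.0744, edgeR adjusted p = 0.723) and Phip by 0.25 (SE 0.182, adjusted p = 0.775) on the log2 scale, neither past the test.

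Over all members, 67 of 84 were higher in ExpOF d14 than in Control d14 and 17 lower, where 46.6% of all genes were higher. The median log2 difference was 0.12 against -0.021 for all 18992 genes. No member passed an adjusted p under 0.05 in edgeR, where 0.00527% of all genes did, and 23 members were under an unadjusted p of 0.05, where 26.7% of all genes were. Groups did not overlap for 3 members, Brwd3, Setdb1 and Arid4a, where this held for 2.71% of all genes. DESeq2's Wald test placed 2 members, Brwd3 and Kdm7a, under an adjusted p of 0.05, where 1.03% of all genes were. The 0 in edgeR depended on 1 library: without Control d14 replicate 1, the control with the highest member level, 31 members (29 of them higher) were under an adjusted p of 0.05, where 22% of all genes were. The 23 at an unadjusted p became 47 without that library (38.4% of all genes) and 36 without Control d14 replicate 3 (29.5%). They became 12 without Control d14 replicate 2 (14.4%), 13 without Control d14 replicate 5 (15.1%) and 14 without ExpOF d14 replicate 3 (20.9%). With all 24 libraries the median was 0.21 and 43 members were under an unadjusted p of 0.05, where 38.2% of all genes were. Since the list followed from this comparison, these counts only describe it, and that of Brwd3 was fixed by the choice.

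**Figure D2:**
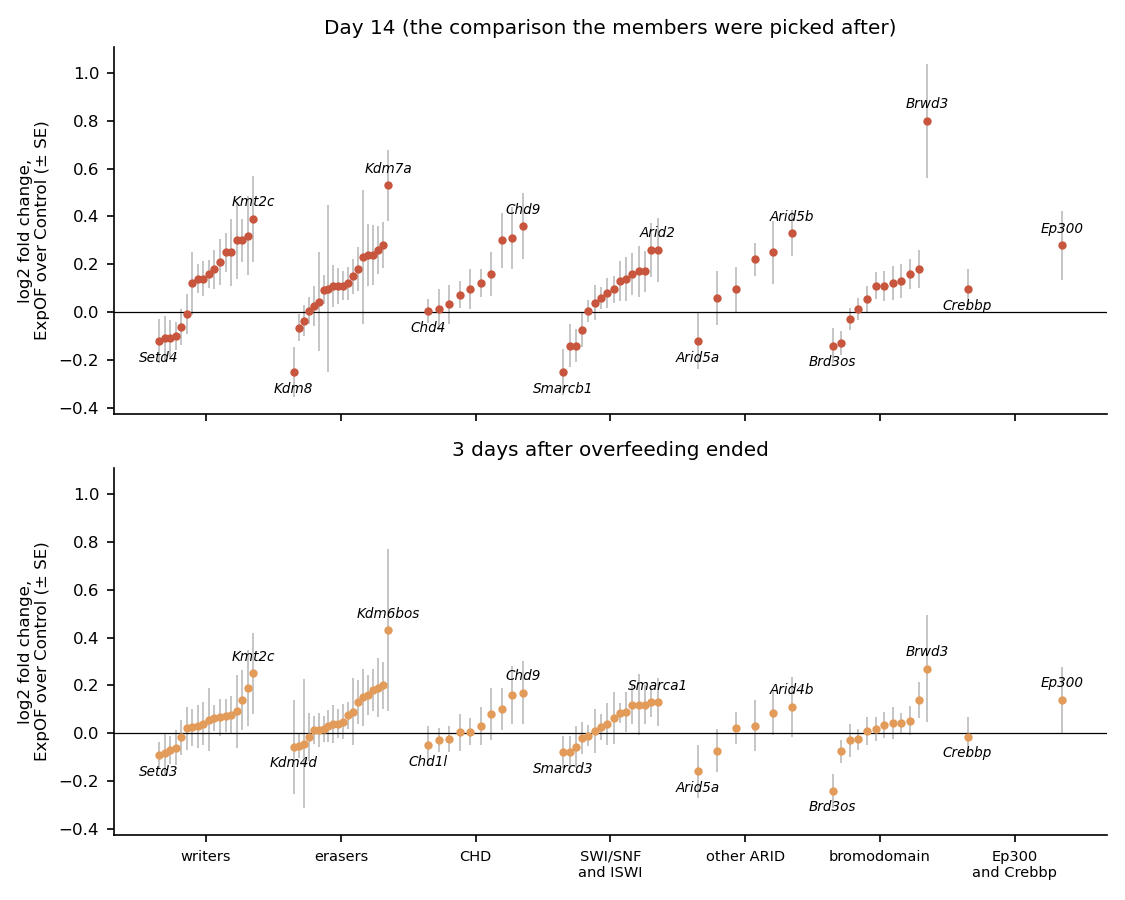
Log2 fold change of ExpOF over Control (vertical axis, bars are SE) for each of the 84 tested members, grouped by role (horizontal axis), on d14 (top) and d14+3 (bottom); the extreme genes of each role are named. On d14 67 points lie above 0, with Brwd3 highest at 0.80, and at d14+3 60 lie above 0, closer to it.

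Roles were counted by symbol alone, so that Setd3, which methylates actin, counts as a writer and Brd3os as a bromodomain gene. Beside the d14 counts by role stands the 46.6% of all genes above 0. Among the writers, 12 of 18 were higher and 6 lower in ExpOF d14, with a median log2 difference of 0.15. Kmt2c, a large enhancer H3K4 methyltransferase, showed the highest value at 0.39 (SE 0.179). Its control libraries held 69.1, 79.0, 86.6, 112 and 156 CPM and the ExpOF libraries 105 to 158 CPM, median 137, so the groups overlapped broadly. Kmt2a, the founding member of this family, differed by 0.32 and Setd1b, which carries out promoter H3K4 trimethylation, by 0.30. Setdb1, which writes the silencing mark H3K9me3, was at 51.7 to 58.3 CPM in controls and 58.6 to 64.1 CPM in ExpOF mice, a log2 difference of 0.16 (SE 0.0577) with only a narrow gap between groups. The lowest writer was Setd4 at -0.12.

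Among the erasers, 17 of 20 were higher on d14, with a median of 0.11. The 20 take in by symbol the pseudogene Kdm4dl (0.23) and the antisense transcript Kdm6bos (0.098), both counted as higher. Kdm7a, a demethylase of H3K9 and H3K27, was next to Brwd3 in the whole list. It stood at 18.2, 19.4, 25.4, 27.3 and 35.8 CPM in controls and at 32.7 to 44.3 CPM, median 36.1, in ExpOF mice, a fold of 1.44 (log2 0.53, SE 0.149). Only the highest control library, replicate 1, reached the ExpOF range. Kdm8, a JmjC-domain hydroxylase, was lowest at -0.25 (SE 0.106), with 6.78 to 10.2 CPM in controls and 5.86 to 7.99 CPM in ExpOF mice.

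In the CHD group all 10 genes had a log2 difference above 0 on d14, from 0.0039 for Chd4 to 0.36 for Chd9 (SE 0.138), a little-studied relative of Chd7 and Chd8. Chd9 held 56.8, 57.0, 60.4, 79.2 and 97.8 CPM in controls and 79.9 to 99.1 CPM in ExpOF mice, and 1 control library lay inside the ExpOF range. Of the 16 SWI/SNF and ISWI genes 12 were higher and 4 lower. The 4 were all Smarc genes, and Smarcb1, a core SWI/SNF subunit and tumour suppressor, was lowest at -0.25 (SE 0.0962), with 68.9, 80.3, 84.1, 94.4 and 101 CPM in controls and a tight 68.7 to 75.7 CPM in ExpOF mice. Smarcd2 and Smarcd3, alternative subunits of the complex, each differed by -0.14. Of the ARID genes outside SWI/SNF, Arid5b, a DNA-binding partner of a demethylase, differed by 0.33 (SE 0.0954), from 30.7 to 47.3 CPM in controls to 45.8 to 52.2 CPM in ExpOF mice. Arid4a, an interactor of the retinoblastoma protein, was at 30.7 to 37.8 CPM in controls and 38.3 to 43.5 CPM in ExpOF mice, the third gene whose groups did not overlap.

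Ep300 and Crebbp, the paired acetyltransferases, differed by 0.28 (SE 0.144) and 0.096 (SE 0.0844) on d14. For Ep300 the controls held 51.8, 64.1, 67.6, 94.2 and 105 CPM against 77.4 to 105 CPM in ExpOF mice. Crebbp held 50.6, 52.5, 55.1, 62.6 and 70.4 CPM in controls against 55.3 to 69.6 CPM, inside the range of its controls. The d14 difference of Crebbp changed sign with the length trend removed (-0.11, or -0.094 with a replicate block as well), with the ribosomal protein level as a covariate (-0.053) and in the September cohort alone (-0.0099). At d14+3 neither passed the test: Ep300 stood at 64.3 to 95.8 CPM in controls and 67.4 to 101 CPM in ExpOF mice, and Crebbp at 52.9 to 67.1 and 50.3 to 68.1 CPM.

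**Figure D3:**
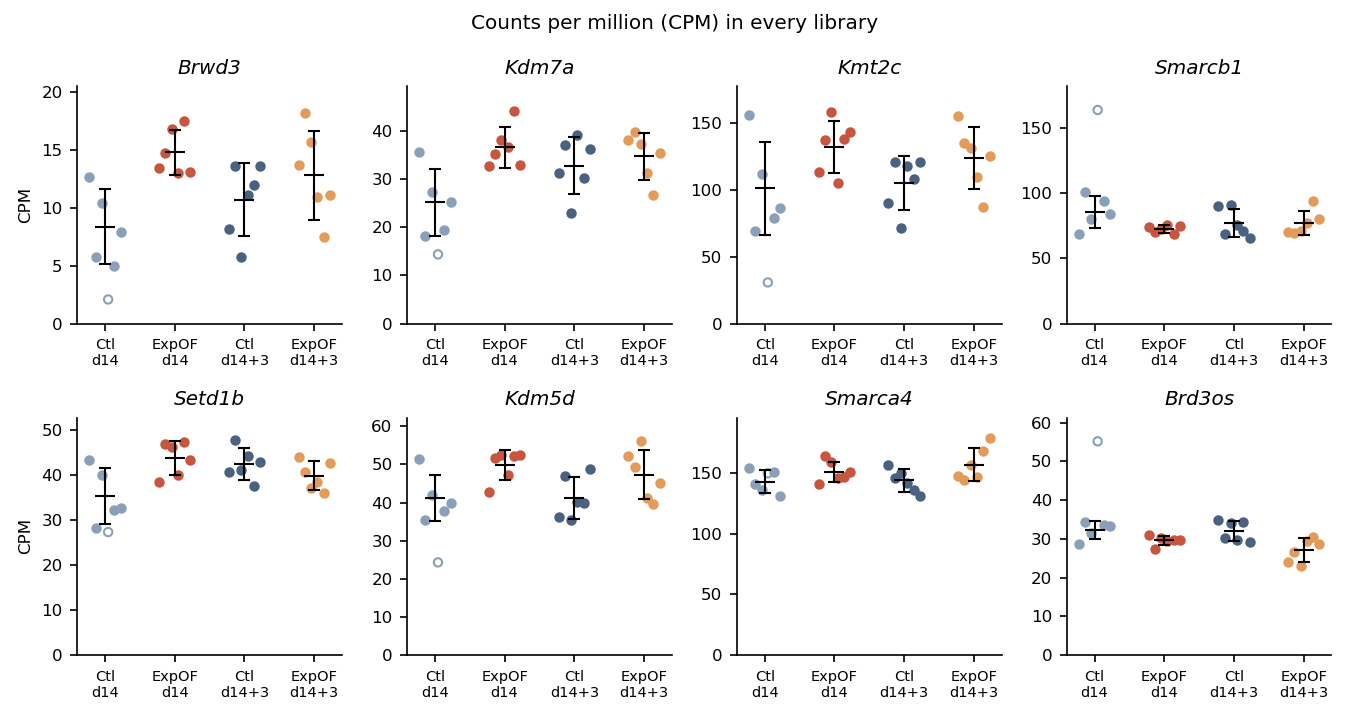
CPM (vertical axes from 0) of 8 members in every library, by group (horizontal axes); points are libraries, the open point is the left-out Control d14 library, and black bars are mean ± SD without it. Brwd3 in ExpOF d14 (13.0 to 17.5 CPM) lies above its 5 controls, while the d14+3 groups overlap for all 8 genes.

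The comparison at d14+3, which the rule did not use, gave no called member in edgeR, and 0% of all genes were called. By DESeq2's Wald test no member was called either, where 0.221% of all genes were. At an unadjusted p under 0.05 there were 4 members of 84, or 4.76%, against 7.11% of all genes. Of these, 3 were higher, where 2.91% of all genes were, and 1 lower, where 4.2% were. The 60 members with a value above 0 and the 24 below it had a median log2 difference of 0.039, against 0.007 for all genes, and 52.1% of all genes lay above 0.

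The members under the unadjusted threshold were Brd3os, Smarca4, Kdm6a and Kdm5d. Brd3os, a neighbour of Brd3 on the opposite strand that the symbol rule took in, ran from 29.2 to 34.8 CPM, median 32.2, in controls and from 23.0 to 30.4 CPM, median 27.8, in ExpOF mice. Its log2 difference was -0.24 (SE 0.0713, edgeR adjusted p = 0.39). The groups overlapped, with an exact two-sided permutation test p = 0.0195 for 6 against 6 libraries. This test was run only on Brwd3 and the genes just named, which were picked by their edgeR p in these same libraries. It is therefore no separate support, and its adjustment over 5 such tests, to 0.0975, does not allow for that choice. Smarca4, the ATPase of SWI/SNF, stood at 131 to 157 CPM in controls and 144 to 179 CPM in ExpOF mice, a log2 difference of 0.13 (SE 0.0607, adjusted p = 0.678 in edgeR). Kdm5d and Kdm6a differed by 0.20 and 0.18.

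Of the other members with the highest or lowest values at d14+3, Kmt2c differed by 0.25, Kmt2a by 0.19 and Kdm1b by 0.19 on the log2 scale. Kmt2c ran from 71.7 to 121 CPM in controls and from 87.4 to 155 CPM in ExpOF mice. Arid5a differed by -0.16, Setd3 by -0.093, Setd1b by -0.084 and Smarcd3 by -0.08. None passed the test (edgeR adjusted p from 0.757 to 0.804), and the ranges of the groups overlapped for each. Kdm6bos, at 243 counts in all, had the largest value at 0.43 with an SE of 0.339.

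By role the medians at d14+3 were 0.048 for the 18 writers, 0.044 for the 20 erasers, 0.018 for the 10 CHD genes, 0.052 for the 16 SWI/SNF and ISWI genes, 0.027 for the 6 other ARID genes and 0.026 for the 12 bromodomain genes. Of the 5 genes lowest on d14, Brd3os and Smarcd3 were again among the 5 lowest at d14+3, and Smarcd2 differed by -0.058. Smarcb1 was at 66.0 to 90.8 CPM in controls and 69.9 to 94.2 CPM in ExpOF mice, a log2 difference of 0.0083, and Kdm8 differed by -0.016. Kdm7a, at 23.0 to 39.2 CPM in controls and 26.8 to 39.8 CPM in ExpOF mice, differed by 0.09 (SE 0.14, adjusted p = 0.861 in edgeR).

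The difference between the 2 days, d14+3 minus d14, contains the d14 values and is described only. It was below 0 for 60 of 84 members, while 52.6% of all genes lay above 0. Its median was -0.07 against 0.011 for all genes, and it was -0.38 for Setd1b, -0.44 for Kdm7a and -0.53 for Brwd3. No member and no gene was called in edgeR, and 4 members, Setd1b, Kmt5a, Kdm7a and Arid4a, were under an unadjusted p of 0.05 where 4.42% of all genes were. Setd1b controls held 28.1, 32.3, 32.7, 39.9 and 43.4 CPM on d14 and 37.6 to 47.8 CPM at d14+3, while ExpOF libraries held 38.4 to 47.3 and 35.9 to 44.0 CPM. Of the 4 groups its d14 controls had the lowest mean, 35.3 CPM, against 39.8 to 43.7 CPM in the others.

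Kdm5c and Kdm5d, an X and Y pair of H3K4 demethylases, and Kdm6a, the X-linked H3K27 demethylase whose Y-linked partner is Uty, could be read side by side in these male mice. Per length Kdm5c stood at 8.14 RPKM against 2.97 for Kdm5d, and Kdm6a at 3.62 against 1.78 for Uty. On d14 the log2 differences were 0.28 for Kdm5c, 0.26 for Kdm5d, 0.18 for Kdm6a and 0.42 for Uty. With the length trend removed those of Kdm5c, Kdm5d and Kdm6a became 0.19, 0.042 and 0.054. With the ribosomal protein level as a covariate they were 0.12, 0.082 and -0.0087. In the main fit at d14+3 Kdm5c, Kdm5d, Kdm6a and Uty differed by 0.13, 0.20, 0.18 and 0.19, with edgeR adjusted p of 0.774, 0.702, 0.702 and 0.784. Kdm5d ran from 35.4 to 48.8 CPM in controls and from 39.5 to 56.1 CPM in ExpOF mice at d14+3, Kdm6a from 25 to 36.2 and from 26.4 to 35.5 CPM. Smarca1, an X-linked ISWI ATPase, differed by 0.17 on d14 and by 0.13 at d14+3, with 38.5 to 62.0 CPM in controls and 47.2 to 68.8 CPM in ExpOF mice on the later day.

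Promoters were read for the 2 members highest on d14 and for the Kdm5 pair, which share a protein family but lie on different chromosomes. Each sequence is from RefSeq, build GRCm38.p6, 5′ to 3′ on the strand of the gene, and runs from 250 bases before the annotated start to 50 after it. Capitals mark letters found on either strand: the GC box GGGCGG, the box named CCAAT, the TATA box TATAAA, the E-box CACGTG and the CREB-type letters TGACG. Brwd3 is at chrX:108834297-108834596 on the minus strand, Kdm7a at chr6:39206724-39207023 on the minus strand, Kdm5c at chrX:152232977-152233276 on the plus strand and Kdm5d at chrY:897538-897837 on the plus strand.
Brwd3: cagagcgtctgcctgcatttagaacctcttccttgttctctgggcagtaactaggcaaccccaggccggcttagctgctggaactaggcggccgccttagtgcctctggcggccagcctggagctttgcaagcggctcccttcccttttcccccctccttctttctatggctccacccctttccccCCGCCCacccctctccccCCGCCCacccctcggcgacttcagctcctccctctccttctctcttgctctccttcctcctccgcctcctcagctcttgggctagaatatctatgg
Kdm7a: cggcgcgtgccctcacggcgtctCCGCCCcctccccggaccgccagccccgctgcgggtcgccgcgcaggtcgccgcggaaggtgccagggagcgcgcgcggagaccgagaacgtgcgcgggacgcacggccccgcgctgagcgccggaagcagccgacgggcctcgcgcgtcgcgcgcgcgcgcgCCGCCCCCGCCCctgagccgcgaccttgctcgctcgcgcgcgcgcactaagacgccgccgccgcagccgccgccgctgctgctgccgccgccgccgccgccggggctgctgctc
Kdm5c: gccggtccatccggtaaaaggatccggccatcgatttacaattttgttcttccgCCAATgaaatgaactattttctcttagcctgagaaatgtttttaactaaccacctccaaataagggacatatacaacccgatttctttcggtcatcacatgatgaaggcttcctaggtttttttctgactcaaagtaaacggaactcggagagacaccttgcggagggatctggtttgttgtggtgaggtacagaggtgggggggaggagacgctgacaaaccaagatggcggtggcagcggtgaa
Kdm5d: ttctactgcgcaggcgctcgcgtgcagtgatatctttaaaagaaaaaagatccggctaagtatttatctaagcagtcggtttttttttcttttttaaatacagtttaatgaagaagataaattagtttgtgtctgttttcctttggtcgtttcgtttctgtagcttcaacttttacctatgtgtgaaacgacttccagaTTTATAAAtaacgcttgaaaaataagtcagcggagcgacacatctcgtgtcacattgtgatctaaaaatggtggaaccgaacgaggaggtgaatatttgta
The windows of Brwd3 and Kdm7a hold GC boxes, that of Kdm5c a CCAAT and that of Kdm5d overlapping TATAAA letters. The Kdm7a window has 65 CpG pairs and 82.7% G or C, Brwd3 11 and 61.7%, Kdm5c 13 and 47%, and Kdm5d 15 and 36.7%. Of the 84 promoters found for 65 members 75% hold a GC box, 3.57% TATAAA and 32.1% CCAAT, against 57.2%, 8.03% and 37.1% of 16494 promoters of other tested genes. The median CpG number was 27 against 18. A match of letters says nothing of binding by a factor.

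The members are long genes. Their median summed exon length was 8304 bases against 3787 for all genes tested, and 37 of 84 fell in the longest of 10 length classes of equal size. On d14 the median log2 difference of all genes climbed with length, from -0.21 in the shortest class to 0.17 in the longest, and the 37 members of the longest class had a median of 0.18. At d14+3 the longest class stood at 0.079 over all genes and 0.078 over its members. With the trend of log2 CPM on length taken out of each library, the median member difference became -0.018 on d14, where all genes stood at -0.037, and -0.0093 at d14+3. After this, 38 of 84 members on d14 and 35 at d14+3 lay above 0. Brwd3 kept a d14 log2 difference of 0.63, Kdm7a 0.39, Arid5b 0.18 and Kdm5c 0.19. Kmt2c stood at 0.15, Ep300 at 0.089, Kdm6a at 0.054, Kdm5d at 0.042 and Brwd1 at -0.09.

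**Figure D4:**
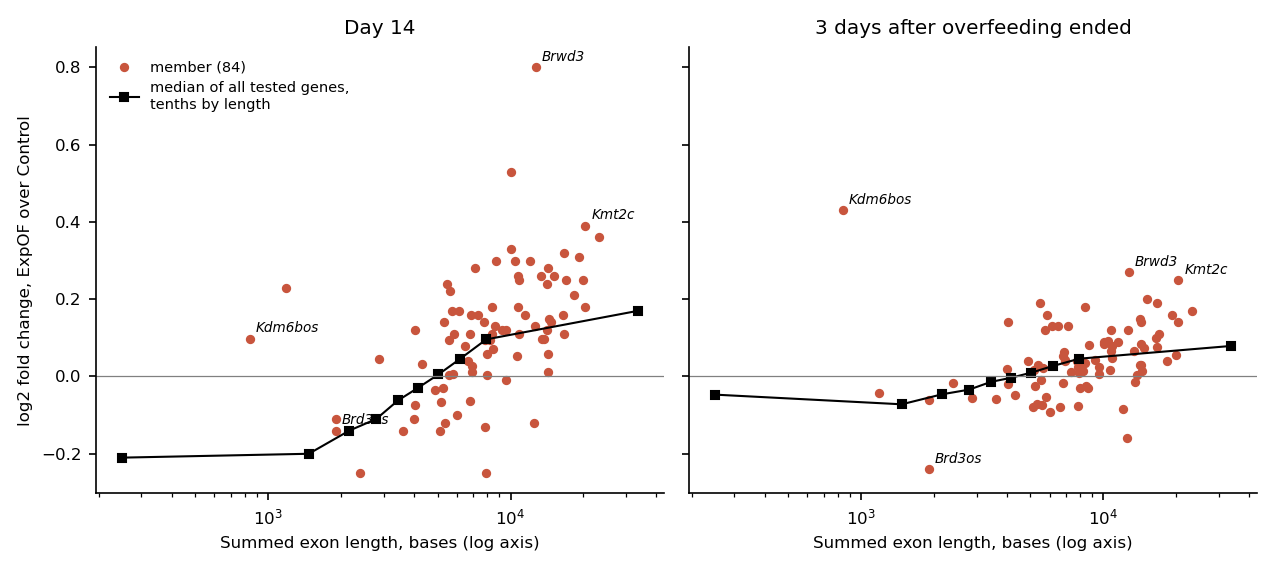
Log2 fold change of ExpOF over Control (vertical axis) against summed exon length in bases (horizontal log axis) for 84 members (points) on d14 (left) and d14+3 (right); black squares are medians of all 18992 tested genes in 10 classes by length, placed at the middle of each class on the log axis. The squares climb from -0.21 to 0.17 on d14, and Brwd3 (0.80) lies above them.

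Among the control libraries, low levels of the members went with high levels of ribosomal protein transcripts, which are short and abundant. The mean member level was 5.63, 5.36, 5.57, 5.42 and 5.43 log2 CPM in Control d14 replicates 1, 2, 3, 5 and 6, where the 95 ribosomal protein genes averaged 5.83, 6.52, 6.03, 6.37 and 6.5. In ExpOF d14 the members spanned only 5.55 to 5.66 and the ribosomal protein genes 5.89 to 6.08. Replicate 5, highest in ribosomal protein genes there (6.08), had a member mean of 5.66. At d14+3 the members spanned 5.43 to 5.61 in controls and 5.46 to 5.64 in ExpOF mice. The ribosomal protein genes spanned 6.06 to 6.51 and 5.65 to 6.23. ExpOF d14+3 replicate 6, lowest in ribosomal protein genes (5.65), had a member mean of 5.60. Of these 95 genes, 90 on d14 and 85 at d14+3 were lower in ExpOF than in Control mice, with median log2 differences of -0.34 and -0.35, and 85 and 82 of 87 respiratory chain genes were lower. With the ribosomal protein level of each library as a covariate the median member difference was 0.023 on d14 and -0.075 at d14+3, and that of Brwd3 0.40 and -0.27. RNA integrity numbers (RIN) were 7.2, 7.9 and 7.9 in 3 of the 6 Control d14+3 libraries and 8.8 or above in all ExpOF libraries. In Control d14 they ran from 8.0 (replicate 5) to 10, against 9.6 to 10 in ExpOF d14. The left-out Control d14 library had a RIN of 9.8. Among libraries with RIN of at least 8.5 the member medians were 0.099 on d14 and 0.063 at d14+3, and 13 members were under an unadjusted p of 0.05 at d14+3, where 17.5% of all genes were.

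**Figure D5:**
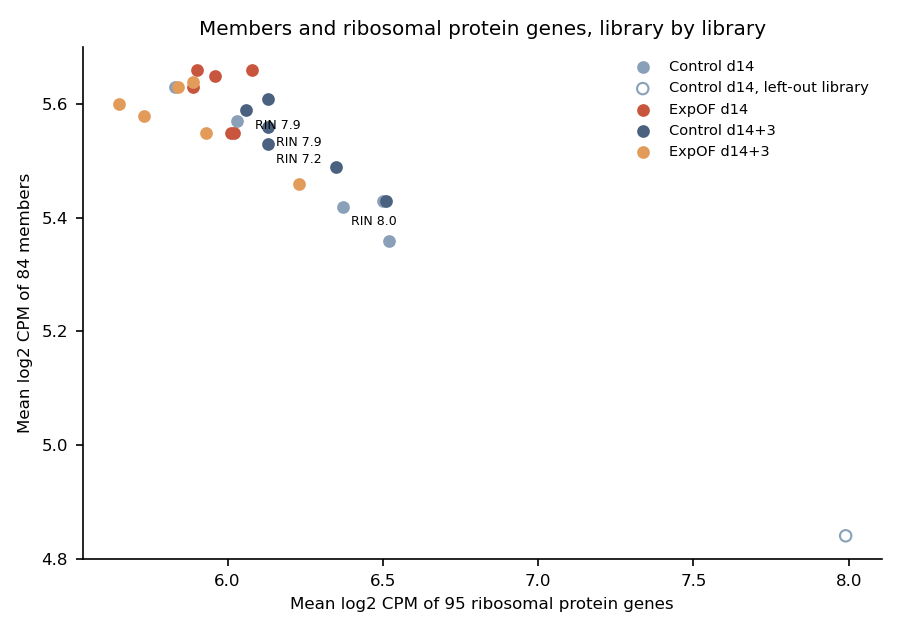
Mean log2 CPM of the 84 members (vertical axis) against that of 95 ribosomal protein genes (horizontal axis) in all 24 libraries, coloured by group; the open point is the left-out Control d14 library and libraries with RIN under 8.5 carry their RIN. Apart from the left-out library, the one lowest in members (5.36) is highest in ribosomal protein genes (6.52). The left-out library is at 4.84 and 7.99.

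Once group means were taken out, the members whose log2 CPM ran most like Brwd3 over the 23 libraries were Arid4b and Chd9, each with Pearson r of 0.92, Kdm7a at 0.90, and Arid2 and Kmt2c at 0.88. The most opposed was Smarcb1 at -0.94. The controls among these libraries share the ordering by ribosomal protein level described above, and the median r over all 3486 pairs of members was 0.21.

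Chromatin genes outside the symbol rule were read from lists of complexes. At d14+3 none of 102 tested was under an unadjusted p of 0.05 in edgeR, where 7.11% of all genes were. That day 66 were above 0, where 52.1% of all genes were, with a median of 0.03. On d14 63 were above 0, where 46.6% of all genes were, with a median of 0.057. Under an unadjusted p of 0.05 in edgeR on d14 were 28 higher and 9 lower of the 102, where 13.1% and 13.6% of all genes were. Like the members, these lists were chosen with earlier results known, so the d14 counts only describe that comparison. The part of gene length in them was not tested. The 9 bromodomain genes outside the rule had medians of 0.21 on d14 and 0.04 at d14+3, with Atad2b at 0.45 and 0.22, and the 9 ISWI partners 0.18 and 0.057, with Bptf, the large reader subunit of NURF, at 0.32 and 0.10. The core and partners of COMPASS, the complex that holds Kmt2 and Setd1 enzymes, stood at -0.0057 and 0.012 over 11 genes, with Dpy30, its small dimer subunit, at -0.23 and -0.17. NuRD had a median of -0.061 and -0.029 over 9 genes. Polycomb repressive complex 2, which writes H3K27 methylation, had 0.0058 and 0.023 over 11 genes, with Suz12 at 0.20 and 0.19 and Phf1 at -0.21 and -0.024. The remaining lists had medians on d14 and d14+3 of 0.045 and 0.049 for other methyltransferases, 0.11 and 0.11 for other Jumonji demethylases, 0.083 and -0.00099 for other SWI/SNF subunits, 0.13 and 0.09 for INO80, SRCAP and TIP60, and 0.049 and 0.018 for other acetyltransferases.

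Mice were killed in July or in September, and RNA was extracted in 2 rounds. No member was called in edgeR between cohorts or between rounds, and 0% of all genes were. Between cohorts 1 member, Kdm5c, was under an unadjusted p of 0.05, where 4.28% of all genes were: its log2 difference, September minus July, was 0.13 (adjusted p = 1 in edgeR). Between rounds there were 3, where 4.08% of all genes were: Kdm8 at 0.17, round 2 minus round 1, and Crebbp and Kdm5c each at -0.13. The median member difference of ExpOF over Control was 0.13 in July and 0.078 in September on d14, and 0.069 and 0.014 at d14+3. Over all genes these medians were -0.023 and -0.013 on d14, and 0.0035 and -3.5e-05 at d14+3. The September controls on d14 were only replicates 1 and 5, and replicate 1 had the highest member level of the d14 controls.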

How the data were processed

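Hypothalamic poly-A RNA was sequenced as 51-base pairs from a stranded kit. The authors aligned reads with STAR to mm10 and counted them per gene with featureCounts 1.6.4, and the deposited values are whole-number counts, not normalized. Whether counting used strand is not given in the sources used here, so reads of a gene and its antisense partner may be mixed. Symbols came from GENCODE vM21 by gene ID (55230 of 55471 matched). Groups, cohorts (date of death), extraction rounds and RIN came from the labels. Per the study, libraries of a group are from separate mice.

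Counts of 23 libraries in 4 groups were fitted together in edgeR 4.0.16 (R 4.3.3): filterByExpr, TMM, robust quasi-likelihood test, Benjamini-Hochberg adjustment over 18992 genes, called at an adjusted p under 0.05. Control d14 replicate 4 was left out because the mean counts in the study's own table match only a fit without it. CPM used TMM library sizes, log2 CPM a prior count of 2, and RPKM the summed exon length in the file. DESeq2 1.42.0 was an alternative. Exact permutation tests were run in scipy 1.17.1. The tests were checked on simulated d14+3 data with known log2 changes. There edgeR recovered 60 of 88 changes of 0.5 and 109 of 112 changes of 1, with 13 other calls. DESeq2 recovered 67 and 110, with 24 other calls. Without changes edgeR made 0 calls and DESeq2 3. Genes were drawn independently, with no length or ribosomal trend between libraries, and changes under 0.5 were not simulated. Replicates of a group differed by more than sampling noise in all 60 pairs (chi-square per degree of freedom at least 2.95).

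Members and lists were chosen with earlier results of these data known. Named were Brwd3, Brwd1, Ep300, Crebbp, Kdm5c, Kdm5d, Kdm6a and Smarca1, the 5 highest and 5 lowest log2 differences on each day among members with a mean of at least 50 counts, the 3 smallest p in each direction between cohorts and rounds, the 5 highest and 3 lowest levels and the 5 most like Brwd3. Other members were named after their values were seen. Alternatives are given in the closing section. Those on RIN of at least 8.5 and on the ribosomal protein level were chosen after seeing the data.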

Additional observations from a re-analysis of the deposited data

Results flagged for a closer look

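Among 23 measures in 4 groups, or 92 sets of libraries, 2 held a library far from the others of its group by Dixon's test, and chance flags about 1 in 20. Kdm6a in ExpOF d14+3 replicate 5 was at 26.4 CPM, where the other 5 libraries of the group lay between 33.2 and 35.5 CPM, and this library also had the lowest mean member level of its group, 5.46 log2 CPM. Kdm1b in ExpOF d14+3 replicate 2 was at 14.9 CPM, where the others lay between 10.6 and 12 CPM.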

How the results depend on the processing

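No member was called at d14+3, between the days, between cohorts or between rounds under any alternative run. The 4 members under an unadjusted p of 0.05 at d14+3 became 1 with only the 2 groups compared in the fit (5.87% of all genes), 1 with all 24 libraries (2.48%), 0 in the September cohort alone (2.96%), 2 with cohort and extraction round as covariates (6.77%), 13 with libraries of RIN at least 8.5 (17.5%) and 20 with the ribosomal protein level as a covariate (14%), a fit in which 20 of 84 members lay above 0. Leaving out each library of this comparison in turn gave 1 to 6 members, where 4.51% to 12.5% of all genes were. The count was 1 without ExpOF d14+3 replicate 3 (5.12%) and 6 without ExpOF d14+3 replicate 5 (12.5%). It was 2 without ExpOF d14+3 replicate 1 (6.52%) or 2 (6.2%) or Control d14+3 replicate 3 (4.51%), 4 (7.85%) or 5 (7.85%). With a replicate block 1 member, Brd3os, was under this threshold, as were 5.72% of all genes. Same-numbered libraries share the extraction round. Their deviations from group means correlated at -0.21 to 0.22, which does not decide what else they share. The block moved no count of called members. The cause of these shifts was not tested, beyond fewer libraries in some fits.

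The median member difference on d14 was -0.018 with the length trend removed and -0.013 with a replicate block and the length trend removed, where the main value was 0.12, and leaving out each library gave 0.083 to 0.17. At d14+3 the main value of 0.039 was -0.075 with the ribosomal protein level as a covariate and 0.024 to 0.057 without each library, lowest without Control d14+3 replicate 3. With this covariate the d14+3 log2 differences also changed sign for Brwd3 (-0.27), Brwd1 (-0.017), Ep300 (-0.24), Kdm5c (-0.083), Kdm5d (-0.024), Kdm6a (-0.048), Smarca1 (-0.059), Kmt2c (-0.22), Kdm1b (-0.01), Kmt2a (-0.23), Arid5a (0.026), Setd3 (0.035) and Smarcd3 (0.051). In the September cohort alone those of Brwd3 (-0.02), Kdm5c (-0.041) and Smarcd3 (0.014) did so. Crebbp, at -0.014, went to 0.025 in July alone, 0.0051 with RIN as a covariate, 0.00021 with libraries of RIN at least 8.5 and -0.06 to 0.029 without each library. Brwd3 at d14+3 ran from 0.15 to 0.39 without each library and on d14 from 0.66 to 1.00. None of these d14+3 differences was called.

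With 5 or 6 libraries a group, the spread between libraries limits precision: the SE of the Brwd3 difference at d14+3 was 0.224 and that of Kmt2c 0.17. Beyond the fits given here, the part of choroid plexus and pituitary content, RIN and ribosomal protein level in the member differences was not tested.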
